A study of Mus musculus with 8 samples.

Results

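The heat shock chaperones described here are 10 genes of mouse liver: the inducible cytosolic group of Hspa1a, Hspa1b, Hsph1, Hsp90aa1, Hspb1, Dnajb1 and Bag3 (7 genes), the constitutive Hspa8 (1 gene), and the mitochondrial pair Hspd1 and Hspe1 (2 genes). They were picked by symbol, through the GENCODE M21 annotation of their Ensembl identifiers, out of 23006 genes in the count table, and all 10 were among the 16876 genes that passed the filter on low counts. The livers came from wild-type mice in 4 groups with 2 RNA-seq libraries each. Phosphate-buffered saline (PBS) alone was given to control mice. SLIT2, a secreted protein that binds ROBO receptors, was injected into the peritoneum at 2 µg per mouse for 3 days in the SLIT2 group. PBS and acetaminophen (APAP, 400 mg/kg) were given in the APAP group, and SLIT2 with the same APAP dose in the SLIT2+APAP group. Livers were taken 24 h after APAP. The labels used here give no strain, sex or age. The APAP libraries carry the numbers 3 and 4 and those of the other groups 1 and 2. Whether both libraries of a group stem from different animals is not stated, and p-values therefore reflect only the spread between libraries, which may be technical.

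Chaperones bind unfolded protein and return it to its native state. HSP70 proteins (Hspa1a, Hspa1b, Hspa8) work in cycles of ATP binding and hydrolysis, J-domain proteins such as Dnajb1 hand them substrates, and nucleotide exchange factors such as Hsph1 and Bag3 reset the cycle. Heat shock factor 1, encoded by Hsf1, switches on the inducible genes when unfolded protein accumulates, by binding arrays of alternating GAA and TTC units called heat shock elements. Hspd1 and Hspe1 encode the chaperonin of the mitochondrial matrix and its lid, while APAP is known to form protein adducts in hepatocytes, many of them in mitochondria.

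On GRCm38, Hspa1a (ENSMUSG00000091971, chr17:34969190-34972156, minus strand) and Hspa1b (ENSMUSG00000090877, chr17:34956436-34959238, minus strand) lie on the same chromosome. Of the 100-base windows in Hspa1a transcripts, 47.1% also occur in Hspa1b, and 49.9% of the windows in Hspa1b occur in Hspa1a. How the deposited counts treated reads that fit both genes is not stated in the labels, so the split between them is uncertain and their sum is given beside each. The 250 bases before the annotated start of each gene, from RefSeq on GRCm38.p6, show how alike the copies are. They are printed 5′ to 3′ on the gene's strand, and capitals mark a heat shock element of 2 units.
Hspa1a chr17:34972157-34972406: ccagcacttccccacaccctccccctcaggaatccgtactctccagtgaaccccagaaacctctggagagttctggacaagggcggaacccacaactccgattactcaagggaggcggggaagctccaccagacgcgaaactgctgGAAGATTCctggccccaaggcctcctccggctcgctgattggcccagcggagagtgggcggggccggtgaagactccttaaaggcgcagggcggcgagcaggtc
Hspa1b chr17:34959239-34959488: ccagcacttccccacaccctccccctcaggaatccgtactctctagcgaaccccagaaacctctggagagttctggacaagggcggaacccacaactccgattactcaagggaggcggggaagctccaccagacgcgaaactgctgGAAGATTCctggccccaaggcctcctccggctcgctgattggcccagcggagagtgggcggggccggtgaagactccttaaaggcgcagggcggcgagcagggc
The runs were identical at 247 of 250 positions, and the 3 differences are C44T, T47C and T249G, with the Hspa1a base first and positions counted from 1 at the 5′ end. Both hold the element from -104 to -97 relative to the start.

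Hspd1 (ENSMUSG00000025980, chr1:55077835-55088243, minus strand) and Hspe1 (ENSMUSG00000073676, chr1:55088132-55091307, plus strand) stand head to head, and their annotated spans overlap by 112 bases on opposite strands. One of the RefSeq start windows of Hspd1 and that of Hspe1 share 285 bases. This shared stretch holds 1 element of 18 bases at chr1:55088059-55088076, which lies inside an untranslated first exon of an annotated Hspd1 transcript. It is shown as read from each gene, with every base in capitals because each belongs to a GAA or TTC unit or the spacer between units.
Hspe1 strand: TTCTAGAACCTTCCGGAA
Hspd1 strand: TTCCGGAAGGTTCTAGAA

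On GRCm38 the other members are at chr5:149614287-149636376 (Hsph1, minus strand), chr12:110690605-110702728 (Hsp90aa1, minus strand), chr5:135887919-135889563 (Hspb1, plus strand), chr8:83608193-83612653 (Dnajb1, plus strand), chr7:128523616-128546981 (Bag3, plus strand) and chr9:40800984-40810087 (Hspa8, plus strand). All 10 are protein-coding. Reads of members other than the Hspa1a and Hspa1b copies may also be shared with copies elsewhere. Of 100-base windows, 47.5% of Hsp90aa1, 42.7% of Hspb1, 31.6% of Hspa8 and 26.9% of Hspd1 occur in transcripts of other genes, most of them in Gm12346, Hsp25-ps1, Gm15459 and Hspd1-ps3. For Hspe1 the share was 0.3%, and for Hsph1, Dnajb1 and Bag3 0%. The levels of those last 4 are the ones least open to such sharing.

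Windows from 250 bases before to 50 bases after the start were given for 8 of the 10 genes, all but Hspa8 and Hsp90aa1. An element of 2 units was searched on both strands as GAANNTTC or TTCNNGAA, each of which is its own reverse complement. An element of 3 units was searched as GAANNTTCNNGAA or TTCNNGAANNTTC, which are each other's reverse complement and contain the shorter forms. A 2-unit element was found in 7 of the 8 genes with a window, all but Dnajb1, and in 17% of the 27025 genes in the table (15.1% of its 32851 windows). Those 7 are not separate sequences, since Hspa1a and Hspa1b are near-identical copies and Hspd1 and Hspe1 share their stretch. One Dnajb1 window ends at chr8:83608224 and the other begins at chr8:83608298, so the bases between them were not searched. A 3-unit element was found in Hsph1 and in the stretch that Hspd1 and Hspe1 share, which makes 2 separate elements for 3 genes, and in 0.662% of all genes (0.603% of windows). The shared element of 18 bases is longer than 3 units and holds 2 overlapping matches of 3 units, while that of Hsph1 holds 1. These are matches of letters, not measured binding. The Hsph1 element, TTCTGGAAAGTTC, lies from 36 to 48 bases after one annotated start and from 15 to 27 after the other. Hspb1 holds GAAGTTTC from -117 to -110 and GAACCTTC from -97 to -90, and Bag3 holds GAAGTTTC from 42 to 49 bases after its RefSeq start. The RefSeq start of Bag3 lies upstream of its GENCODE start, chr7:128523616, and its window ends at chr7:128523632.

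**Figure D1:**
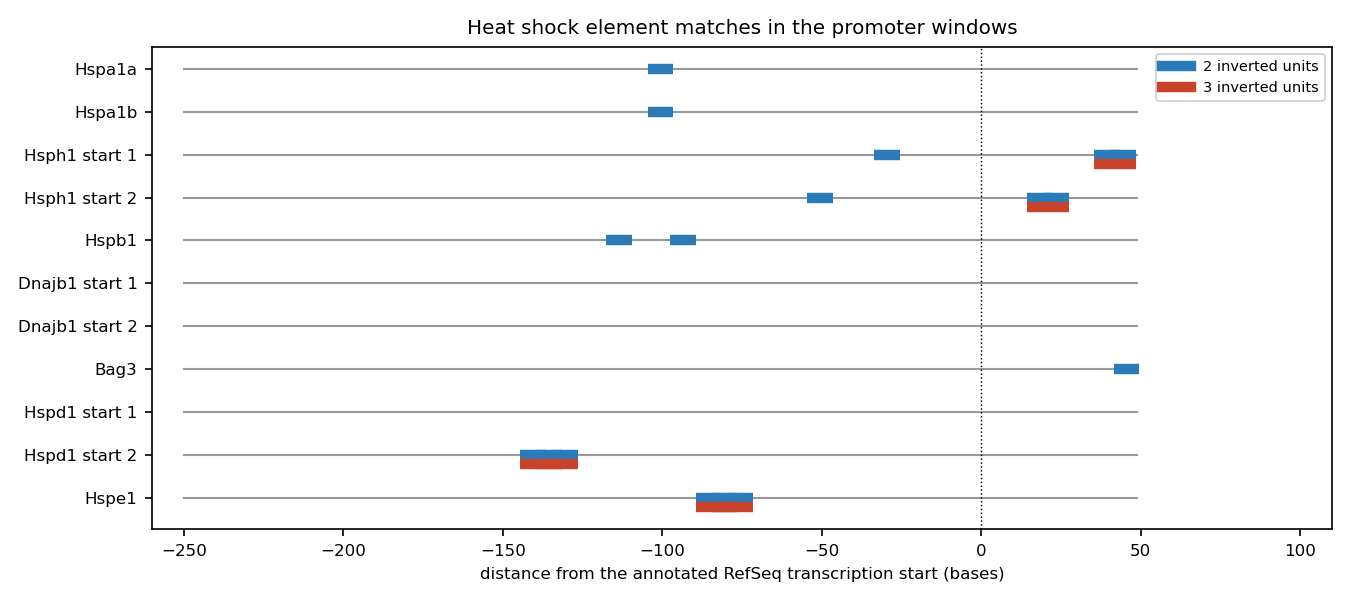
Position of heat shock elements in the start windows of the members, in bases from the annotated start (x axis), with 1 line per RefSeq window, blue boxes for elements of 2 units and red boxes for elements of 3 units. Elements of 3 units are in the windows of Hsph1, Hspd1 and Hspe1, and the Hspa1a and Hspa1b elements are at the same place.

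Depth and tissue markers bear on what follows. The libraries held 60.8 to 100.5 M counts in total (1 M is 1000000). The 13 genes of the mitochondrial genome took 60.2% and 69.0% of the counts in the SLIT2 libraries, 25.1% and 30.3% in SLIT2+APAP, and 13.4% to 17.3% in control and APAP. All 6 hepatocyte markers (Alb, Apoa1, Ttr, Cps1, Cyp2e1 and Hnf4a) were detected in every library. Their summed level was 46660 and 66450 CPM (counts per 1000000, on TMM-scaled library sizes) in control, 13000 and 7172 in SLIT2, 95950 and 75760 in APAP, and 61730 and 60620 in SLIT2+APAP. A list of 10 skeletal muscle markers summed to 1011 and 112.7 CPM in the control libraries and to between 0.767 and 2.37 CPM in the other 6 libraries, and all 10 were called lower in each comparison with control. The 7 neutrophil markers summed to 3.46 and 4.62 CPM in control, 36.2 and 32.7 in SLIT2, 23.6 and 8.83 in APAP, and 7.73 and 9.31 in SLIT2+APAP, with Ly6g at 0 outside APAP, and 2 of the 6 tested were called higher in SLIT2 against control. In that comparison 27.6% of all genes tested were called lower, as were 5 of 6 hepatocyte, 3 of 5 Kupffer, 3 of 6 monocyte and macrophage, 2 of 5 endothelial, 2 of 5 stellate and 2 of 5 cholangiocyte markers, while 1 endothelial and 1 cholangiocyte marker were called higher. The part of these cell types in the members' values was not tested. In bulk tissue, fewer cells of a type and less RNA per cell cannot be told apart.

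In control liver the members spanned a wide range. Per kilobase of exon, the level of Hspa8, the housekeeping HSP70, was highest at 195.8 ± 66.9 CPM per kb (SD, n = 2). Hsp90aa1, a cytosolic HSP90 that matures kinases and receptors, followed at 119.5 ± 28.2, then Hspe1 at 105.1 ± 12.3 and Hspd1 at 94.7 ± 2.68 CPM per kb. The order of those last 3 depends on the exon length used, since by the longest transcript Hspe1 stood above Hsp90aa1 (160.8 against 143.2 CPM per kb). Below them came the small heat shock protein Hspb1 at 17.7, Bag3 at 6.40, Dnajb1 at 5.84, Hsph1 at 3.5 and Hspa1b at 3.02 CPM per kb. Hspa1a was lowest at 0.241 ± 0.0798 CPM per kb. In APAP liver Hspa8 again led, at 398 CPM per kb, and Hspa1a reached 3.36, still the lowest of the 10. In SLIT2 liver Hsp90aa1, at 76.1 CPM per kb, stood above Hspa8 at 47.1.

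**Figure D2:**
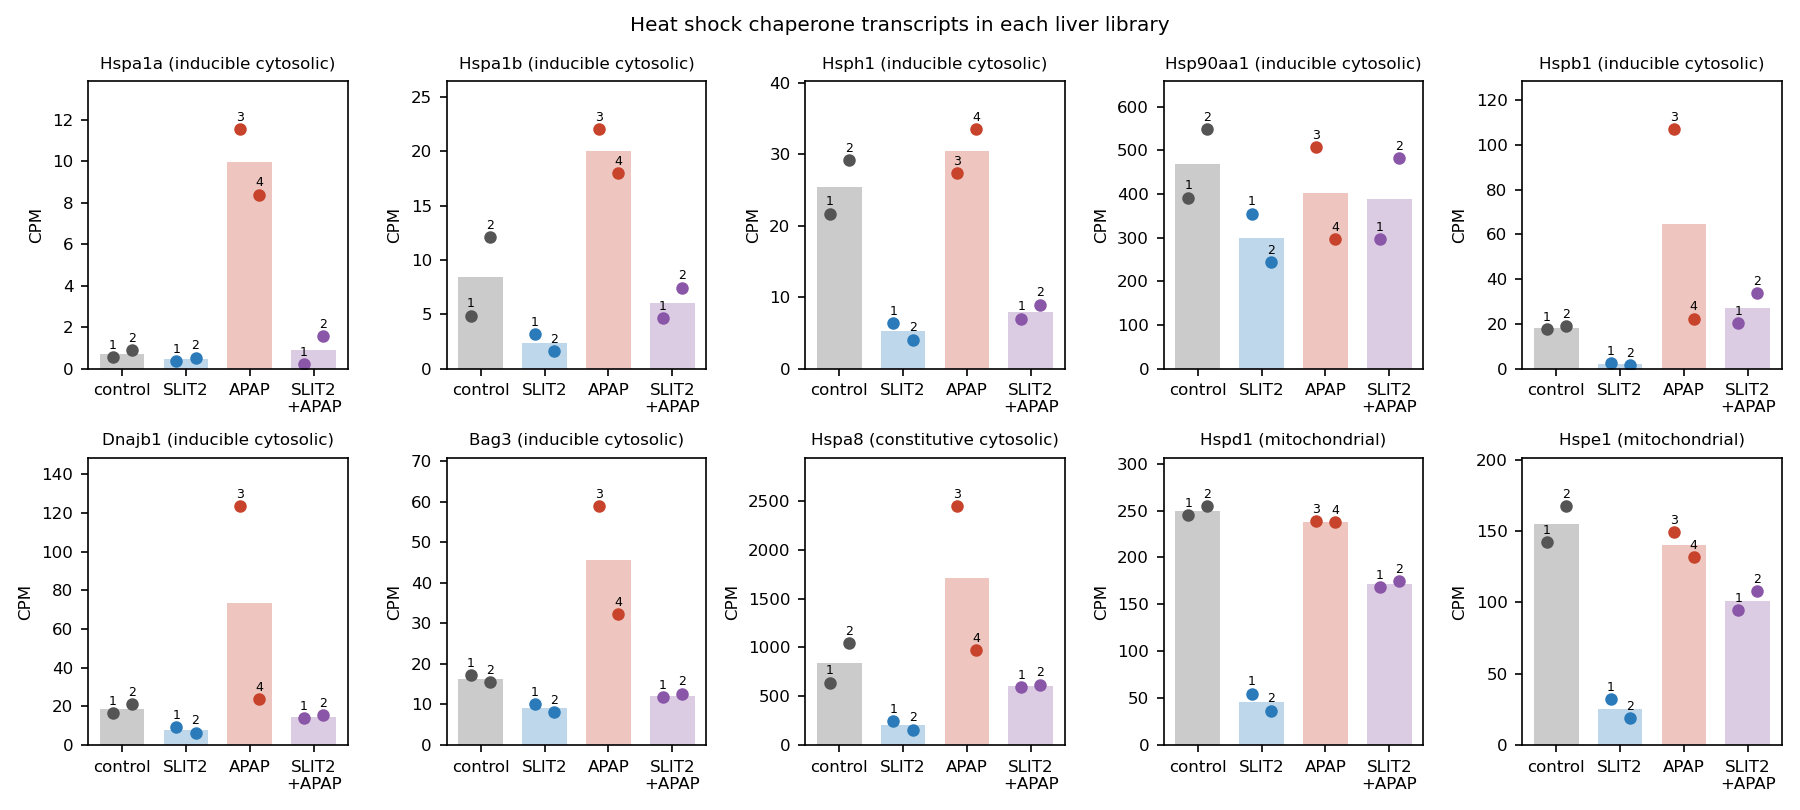
Level of each member in each library, in CPM on a linear axis from 0 with a scale for each gene, with numbered points for the libraries and a bar for the mean of each group of 2. The inducible genes other than Hsp90aa1 are highest on average in APAP, and every member has its lowest mean in SLIT2. The APAP libraries lie far apart for Dnajb1 (124 and 23.6 CPM) and Hspb1 (107 and 22.3 CPM).

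The effect of the toxic dose on its own was read from APAP against control. Hspa1a, the stress-induced HSP70, had 0.548 and 0.883 CPM in the control libraries and 11.5 and 8.39 CPM in APAP. No APAP library came near a control library, and the fitted difference was a log2 fold change of 3.79 ± 0.74 (SE), short of the threshold at an edgeR adjusted p = 0.0591. Its neighbour Hspa1b had 4.86 and 12.1 CPM in control and 22 and 18.0 CPM in APAP, again without overlap, at 1.24 ± 0.48 (edgeR adjusted p = 0.167). With the counts of both genes summed, control stood at 5.41 and 12.9 CPM and APAP at 33.6 and 26.4 CPM, a difference of 1.71 ± 0.47 (edgeR adjusted p = 0.0947).

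Bag3, an exchange factor that directs clients to autophagy, had 17.2 and 15.6 CPM in control and 59.0 and 32.2 CPM in APAP. Both APAP libraries were above both controls, by 1.48 ± 0.30 on the log2 scale (edgeR adjusted p = 0.0637). Dnajb1, the main J-domain partner of inducible HSP70, had 16.3 and 21.1 CPM in control against 124 and 23.6 CPM in APAP. Of the APAP libraries only 3 was far above control, library 4 was within a few CPM of it, and the difference of 1.98 ± 0.64 had an edgeR adjusted p = 0.121. Hspb1, which holds unfolded protein in a refoldable state, showed the same split, with 17.5 and 19.1 CPM in control and 107 and 22.3 CPM in APAP (1.82 ± 0.63, edgeR adjusted p = 0.139). The APAP libraries differed 5.24-fold for Dnajb1 and 4.80-fold for Hspb1, but 1.37-fold for Hspa1a and 1.01-fold for Hspd1.

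Hspa8 had 638 and 1045 CPM in control and 2452 and 974 CPM in APAP, so the groups overlapped (1.02 ± 0.47, edgeR adjusted p = 0.220). Hsph1, an HSP110 that acts as exchange factor of HSP70, overlapped too, with 21.7 and 29.1 CPM in control and 27.4 and 33.5 CPM in APAP (0.26 ± 0.29, edgeR adjusted p = 0.606). Hsp90aa1 had 391 and 548 CPM in control and 507 and 297 CPM in APAP, without separation (-0.23 ± 0.38, edgeR adjusted p = 0.740). The mitochondrial pair stayed close to control. Hspd1 had 245 and 255 CPM in control and 239 and 237 CPM in APAP (-0.07 ± 0.24, edgeR adjusted p = 0.882), and Hspe1 had 142 and 168 against 149 and 132 CPM (-0.14 ± 0.28, edgeR adjusted p = 0.781).

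Counted over the list, 0 of the 10 members were called by edgeR at an adjusted p under 0.05, where 0.788% of all genes tested were. At an unadjusted p under 0.05 there were 5 (Hspa1a, Hspa1b, Hspb1, Dnajb1 and Bag3), against 24.6% of all genes, and the same 5 had both APAP libraries above both controls, against 26.9%. Hspd1 alone had both APAP libraries below both controls, against 26.1% of all genes. DESeq2 called 4 members, Hspa1a, Dnajb1, Bag3 and Hspb1, all higher, where it called 6.46% of the genes it tested higher. The median log2 fold change was 1.48 over the 7 inducible genes and -0.11 over the mitochondrial 2, beside 0.05 over all genes tested. The fold changes of some members depended on which APAP library was kept. Such a fit leaves 1 APAP library, so it holds no spread of that group. Without library 4, Dnajb1 stood at 2.71, Hspb1 at 2.53, Bag3 at 1.83 and Hspa1a at 3.98. Without library 3, the same genes stood at 0.34, 0.29, 0.98 and 3.55. Scaled by library totals alone, edgeR called 1 member, Hspa1a (edgeR adjusted p = 0.0486), where 145 of 16876 genes were called higher.

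SLIT2+APAP against APAP sets livers with and without SLIT2 side by side after the same APAP dose. Hspa1a had 0.225 and 1.56 CPM in SLIT2+APAP, far under the 11.5 and 8.39 CPM of APAP, and it fell by 3.46 ± 0.72 on the log2 scale (edgeR adjusted p = 0.0223). The SLIT2+APAP libraries were themselves 6.90-fold apart, since they held 18 counts (95% exact Poisson interval 10.7 to 28.4, for counting error only) and 152 counts of Hspa1a. Hspa1b had 4.63 and 7.45 CPM against 22 and 18.0 CPM, without overlap, and missed the threshold at -1.73 ± 0.49 (edgeR adjusted p = 0.0532). The summed counts of both genes fell, from 33.6 and 26.4 CPM to 4.86 and 9.0 CPM, by 2.11 ± 0.48 (edgeR adjusted p = 0.0288).

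Both exchange factors fell as well. Bag3 had 11.7 and 12.7 CPM in SLIT2+APAP against 59.0 and 32.2 CPM in APAP, with no overlap, and fell by 1.90 ± 0.30 (edgeR adjusted p = 0.0112). Hsph1 had 7.0 and 8.94 CPM against 27.4 and 33.5 CPM and fell by 1.93 ± 0.30 (edgeR adjusted p = 0.0101). Hsph1 was the one of the 3 called genes whose APAP level overlapped control. Dnajb1 had 14.0 and 15.4 CPM against 124 and 23.6 CPM, all lower, at -2.32 ± 0.65 (edgeR adjusted p = 0.0507).

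Hspa8 had 594 and 619 CPM in SLIT2+APAP against 2452 and 974 CPM in APAP, again without overlap (-1.50 ± 0.47, edgeR adjusted p = 0.0699). For Hspb1 the 20.3 and 33.8 CPM of SLIT2+APAP bracketed the 22.3 CPM of APAP library 4, under the 107 CPM of library 3 (-1.26 ± 0.62, edgeR adjusted p = 0.200), and without library 3 the difference was 0.27. Hsp90aa1, at 296 and 483 CPM against 507 and 297 CPM, did not separate (-0.04 ± 0.38, edgeR adjusted p = 0.947). The mitochondrial pair had lower values in each SLIT2+APAP library, 169 and 175 CPM for Hspd1 and 94.4 and 108 CPM for Hspe1, with the same difference for both, -0.47 (SE 0.24 and 0.28), and edgeR adjusted p = 0.208 and 0.271.

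Over the list, 3 of 10 members (Hspa1a, Hsph1 and Bag3) were called lower and 0 higher, where 7.64% of all genes tested were called lower and 13.9% in either direction. Both SLIT2+APAP libraries were below both APAP libraries for 8 members, all but Hsp90aa1 and Hspb1, against 29.4% of all genes. All 10 fitted values were negative, with a median of -1.61 beside -0.06 over all genes. Scaled by library totals alone, Hsp90aa1 turned to 0.18, the other 9 stayed negative, and the medians were -1.40 for members and 0.12 for all genes. DESeq2 called 6 members lower, adding Dnajb1, Hspa8 and Hspa1b, where it called 12.4% of the genes it tested lower. Leaving out SLIT2+APAP library 1 or 2 left 0 members called by edgeR, with adjusted p = 0.0660 and 0.0522 for Hspa1a, and 0.978% and 0.116% of all genes called. Without APAP library 4 there were 6 members, against 18.7% of all genes called lower in that fit. Without APAP library 3 there were 2, Bag3 and Hsph1, against 10.2%. A fit to only the 4 libraries compared called 0 members and 0.00645% of all genes. Some cell type markers were lower in the same comparison. The cholangiocyte marker sum was 66.4 and 56.9 CPM in APAP and 23 and 29.9 CPM in SLIT2+APAP, with 2 of 5 markers called lower, and the monocyte and macrophage sum was 68.9 and 72.6 against 33.8 and 39.7 CPM, with 1 of 6 called lower. Spp1 is in both of these lists. Of the hepatocyte markers 1 of 6 was called lower, and of the 6 neutrophil markers tested 1 was called in each direction. Their part in the members' values was not tested. This comparison and APAP against control share the APAP libraries, so a high APAP value moves both.

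**Figure D3:**
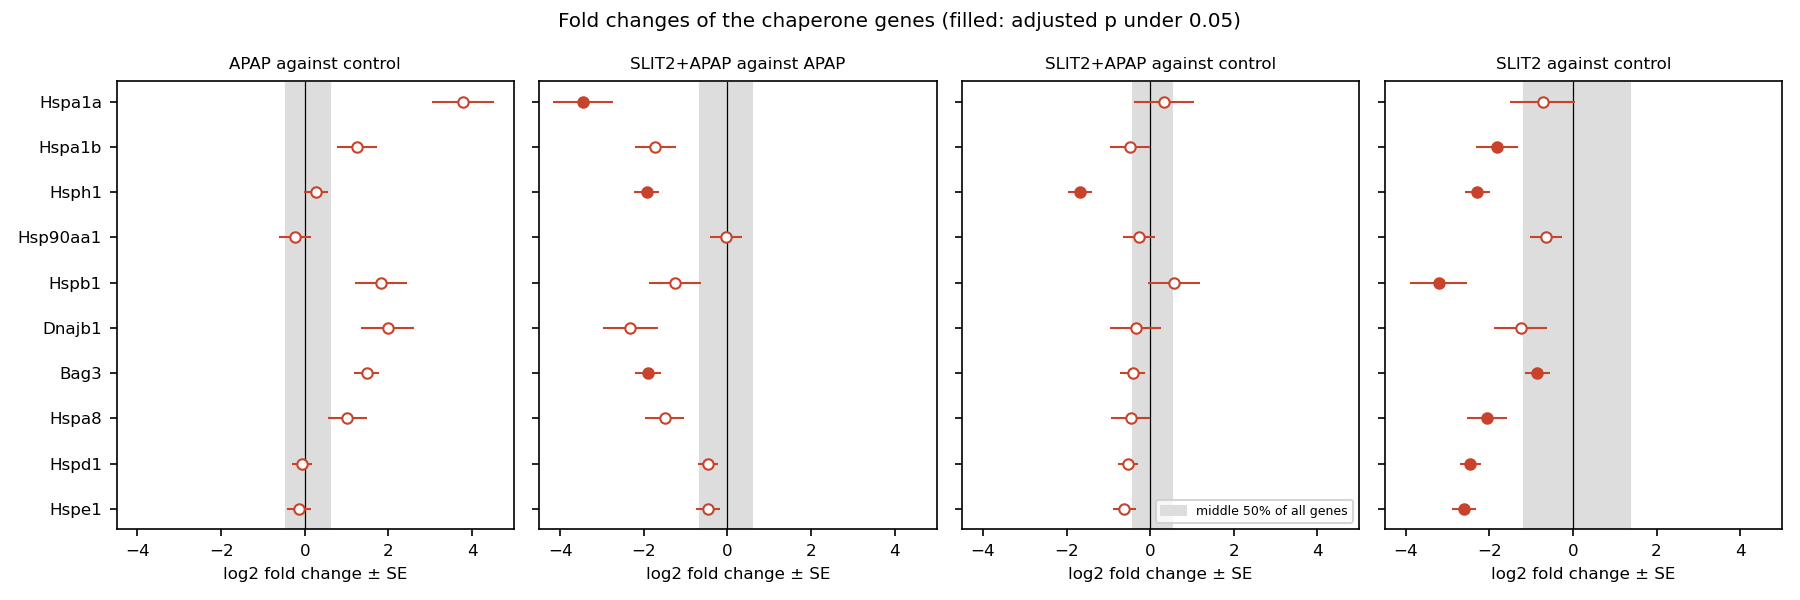
Log2 fold change of each member in each comparison, with bars for the standard error of the edgeR fit, filled points for an adjusted p under 0.05 and a grey band for the middle 50% of all genes tested. Against APAP, the SLIT2+APAP values of Hspa1a, Hsph1 and Bag3 are filled, and against control 7 SLIT2 values are.

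SLIT2+APAP against control sets the doubly treated livers beside untreated ones. Hsph1 fell by 1.67 ± 0.29 (edgeR adjusted p = 0.0382), from 21.7 and 29.1 CPM to 7.0 and 8.94 CPM, and was the 1 member called of 10, where 1.45% of all genes were called lower and 2.16% in either direction. Its call was lost without any one of the control, SLIT2 or SLIT2+APAP libraries (adjusted p between 0.0632 and 0.447), without both SLIT2 libraries (0.0717) and with library totals as scaling (0.0785). The level of Hspa1a overlapped control (0.33 ± 0.72, edgeR adjusted p = 0.840), as did that of Hspa1b (-0.49 ± 0.48, edgeR adjusted p = 0.628). Their summed counts stood at -0.4 ± 0.47 (edgeR adjusted p = 0.680). Dnajb1, Bag3, Hspa8, Hspd1, Hspe1 and Hsph1 had both SLIT2+APAP libraries below both controls (6 genes, against 32.3% of all genes), with values between -1.67 and -0.35. Hspb1 had both above (0.56 ± 0.62, edgeR adjusted p = 0.665), against 35.2% of all genes. At an unadjusted p under 0.05 Hsph1 was again the 1 member, against 20.4% of all genes.

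SLIT2 against control involves the libraries whose counts were mostly mitochondrial, and 54.9% of all genes were called there, 27.6% lower. Of the members 7 fell: Hspa1b, Hsph1, Hspb1, Bag3, Hspa8, Hspd1 and Hspe1. Hspb1 had 2.40 and 1.54 CPM in SLIT2 against 17.5 and 19.1 CPM in control and fell by 3.21 ± 0.68 (edgeR adjusted p = 0.00514), the largest value of the 10. Hspd1 had 54.8 and 36.8 CPM against 245 and 255 CPM and fell by 2.45 ± 0.25 (edgeR adjusted p = 0.000195). Hspe1 had 32.2 and 18.9 CPM against 142 and 168 CPM and fell by 2.60 ± 0.29 (edgeR adjusted p = 0.000281). Every SLIT2 library was several times below every control library for these 3 genes.

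Hspa8 had 248 and 157 CPM in SLIT2 and fell by 2.06 ± 0.48 (edgeR adjusted p = 0.00765), Hsph1 had 6.38 and 4.04 CPM and fell by 2.28 ± 0.30 (edgeR adjusted p = 0.000543), and Bag3 had 10.1 and 8.07 CPM and fell by 0.85 ± 0.30 (edgeR adjusted p = 0.0400). Hspa1b had 3.18 and 1.59 CPM and fell by 1.82 ± 0.50 (edgeR adjusted p = 0.0159). The others did not pass, with Hspa1a at 0.354 and 0.525 CPM (-0.72 ± 0.78, edgeR adjusted p = 0.463), Dnajb1 at 9.39 and 6.34 CPM (adjusted p = 0.127) and Hsp90aa1 at 355 and 244 CPM (adjusted p = 0.177). With the counts of Hspa1a and Hspa1b summed, the difference was -1.69 ± 0.48 (edgeR adjusted p = 0.0185). All 10 had both SLIT2 libraries below both controls, against 41.4% of all genes. With the replicate number as a block, Dnajb1 was called and Hspa1b was not (edgeR adjusted p = 0.0692), where 33.8% of all genes were called lower. Without SLIT2 library 2, 3 members were called, Hspd1, Hspe1 and Hsph1, against 18.9% of all genes called lower. With the 13 mitochondrially encoded genes removed before scaling, the same 7 members were called, against 27.8%. The part of the mitochondrial share and of the lower hepatocyte marker sum in these values was not tested.

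The interaction term asks whether SLIT2 moved a gene differently with APAP than without it. Hspd1 and Hspe1 were the 2 members called by edgeR, both positive, where 15.5% of all genes were called positive and 28.8% in either direction. DESeq2 called 3 members, these 2 and Hspa1a as negative, where it called 5671 of the 17207 genes it tested. For Hspd1 the SLIT2 difference was -0.47 in mice given APAP and -2.45 in mice without it, and the term was 1.98 ± 0.34 (edgeR adjusted p = 0.00757). For Hspe1 the values were -0.47 and -2.60, with a term of 2.13 ± 0.40 (edgeR adjusted p = 0.00948). The pair was called in each fit that left out 1 library, with Hspd1 between 1.73 and 2.32 and Hspe1 between 1.81 and 2.60. The mitochondrially encoded share differed between the same groups, at 60.2% to 69.0% in SLIT2 and 25.1% to 30.3% in SLIT2+APAP, and its part was not tested. Hspa1a had the largest negative term, -2.74 ± 1.05 (edgeR adjusted p = 0.0836), while Hspa1b had 0.09 ± 0.68 (edgeR adjusted p = 0.932). With the counts of both copies summed the term was -0.42 ± 0.66 (edgeR adjusted p = 0.6615). The Hspa1a term therefore carries the uncertainty of the split between the copies. Bag3 had -1.05 ± 0.42 (edgeR adjusted p = 0.0924). Without APAP library 4, 5 members were called (Dnajb1 and Bag3 negative, Hspb1, Hspd1 and Hspe1 positive), where 46% of all genes were.

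Ordered by their means, the groups ranked as follows. Of the 7 inducible genes, 6 had their highest mean in APAP and all 7 their lowest in SLIT2. The share of all genes with such an order was not counted. Both SLIT2 libraries were below both controls for 41.4% of all genes, and both APAP libraries above both controls for 26.9%. Hspa1a ran APAP, SLIT2+APAP, control and SLIT2, and its SLIT2+APAP and control libraries overlapped. Bag3 and Dnajb1 ran APAP, control, SLIT2+APAP and SLIT2 with no overlap between neighbours, and Hspa8 ran in that order with overlap between APAP and control. Hspd1 and Hspe1 ran control, APAP, SLIT2+APAP and SLIT2, and control and APAP overlapped for Hspe1. Hsp90aa1 ran in the same order, but every pair of neighbours overlapped.

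Ratios of counts within a library do not depend on how libraries are scaled. The ratio of Hspd1 to Hspe1 counts was 1.72 and 1.52 in control, 1.70 and 1.95 in SLIT2, 1.60 and 1.80 in APAP, and 1.79 and 1.62 in SLIT2+APAP. It stayed in this narrow range while both genes differed several-fold between groups. The ratio of Hspd1 to Hspa9, the HSP70 of the mitochondrial matrix, was 0.636 and 0.828 in control and 0.701 and 0.699 in APAP, but 1.2 and 0.979 in SLIT2 and 1.36 and 1.26 in SLIT2+APAP. All 4 libraries with SLIT2 were above all 4 without it. Of the other ratios computed, only Hspa8 to Hspa5, the HSP70 of the endoplasmic reticulum, separated in the same way. That ratio was 0.952 to 2.12 without SLIT2 and 3.26 to 4.34 with it. How many gene pairs separate so was not counted. Between 2 groups of 2 libraries the smallest two-sided p of an exact permutation test is 0.333, so no ratio was tested between groups. That limit does not apply to the split of 4 libraries against 4, which was not tested either.

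In the HSP90 pair the ratio of the constitutive Hsp90ab1 to Hsp90aa1 was 0.979 and 0.975 in control and higher in the other 6 libraries, between 1.29 and 2.07. The ratio of Hspa1b to Hspa1a was 8.87 and 13.7 in control and 1.91 and 2.15 in APAP. It was 9.0 and 3.03 in SLIT2 and 20.6 and 4.79 in SLIT2+APAP, where Hspa1a held few counts, and it carries the uncertainty of reads shared by the copies. Hsph1 to Hspa8 was 0.0118 and 0.0144 in SLIT2+APAP, 0.0258 and 0.0257 in SLIT2, 0.0339 and 0.0279 in control, and 0.0112 and 0.0344 in the APAP libraries, which fell on either side of the other groups.

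**Figure D4:**
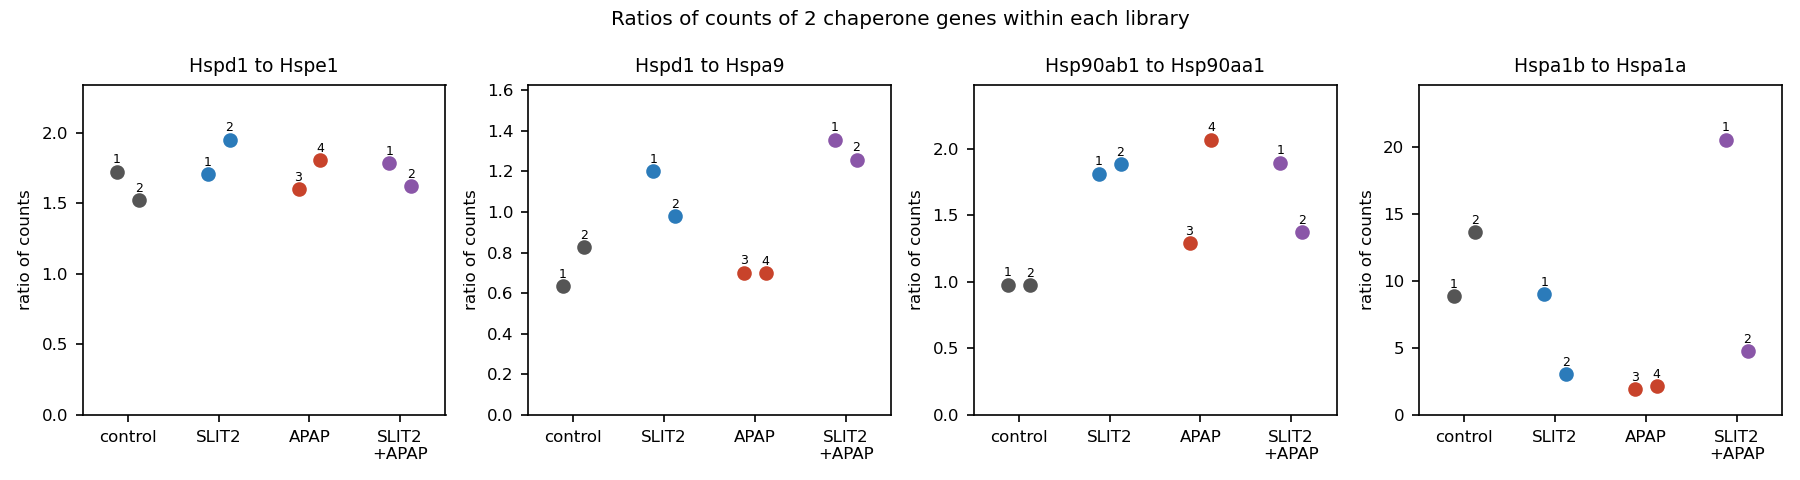
Ratio of counts of chaperone pairs within each library, on a linear axis from 0, with 1 numbered point per library and the groups side by side. Hspd1 to Hspe1 is nearly level across the 8 libraries, Hspd1 to Hspa9 is higher in the 4 libraries with SLIT2, and Hspa1b to Hspa1a is lowest in APAP.

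Other genes of the chaperone network were taken as 71 genes in 8 classes by role, of which 70 were tested. In APAP against control edgeR called 0 of them (22 at an unadjusted p under 0.05, against 24.6% of all genes). DESeq2 called 3 higher and 5 lower, where it called 11.6% of all genes it tested, and without APAP library 4 edgeR called 11 higher and 12 lower, where 28.7% of all genes were called. Both shares of the 70 were close to those of all genes. In SLIT2+APAP against APAP 1 rose and 16 fell. Those that fell include 5 of 14 subunits of CCT and prefoldin, which fold actin and tubulin, 4 of 9 exchange factors and ubiquitin genes, 3 of 11 mitochondrial genes and 2 of 10 in the HSP90 class. Leaving out SLIT2+APAP library 1 left 2 called (0.978% of all genes), leaving out library 2 left 0 (0.116%), and a fit to only the libraries compared called 0 (0.00645%). These counts sit in a comparison where edgeR called 13.9% of all genes, and 7.64% lower. DESeq2 called 4 of the 70 higher and 19 lower there, where it called 12.4% of the genes it tested lower.

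Cct6a, a CCT subunit, had 39.2 and 50.1 CPM in APAP and 8.76 and 7.48 CPM in SLIT2+APAP and fell by 2.46 ± 0.25 (edgeR adjusted p = 0.00476), and it was below its control level of 29.6 and 30.3 CPM as well (-1.89 ± 0.25, edgeR adjusted p = 0.0253). Cct3 fell by 1.87, Cct5 by 1.25 and Cct4 by 1.18 against APAP. Cdc37, which brings kinases to HSP90, fell by 1.63, and Ahsa1, which stimulates the HSP90 ATPase, by 1.15. Hspa9 had 341 and 340 CPM in APAP and 124 and 139 CPM in SLIT2+APAP and fell by 1.37 ± 0.23 (edgeR adjusted p = 0.0125). Its difference from Hspd1 and Hspe1, which were not called there, was not tested. The mitochondrial proteases Afg3l2 and Lonp1 fell by 1.64 and 0.96. Ubb, a polyubiquitin gene, had 1317 and 618 CPM in APAP and 261 and 189 CPM in SLIT2+APAP and fell by 2.1 ± 0.41 (edgeR adjusted p = 0.0189), Bag2, an exchange factor, fell by 3.05 ± 0.65 (edgeR adjusted p = 0.0230) and Dnajb2, a J-domain protein, by 2.31.

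Hsf1, the factor that controls the inducible members, had 10.7 and 9.54 CPM in control, 15.3 and 11.6 in APAP, and 11.4 and 12.4 in SLIT2+APAP. It was called in neither APAP comparison (0.41 and -0.17). Hsf1 rose in SLIT2, to 17.8 and 16.2 CPM (0.75 ± 0.22, edgeR adjusted p = 0.0206). Hsf2, another heat shock factor, had 8.95 and 20.4 CPM in APAP and 36.6 in both SLIT2+APAP libraries and rose by 1.31 ± 0.35 (edgeR adjusted p = 0.0458). Hsp90ab1 was called in none of the 5 tests, with differences from -0.31 to 0.46. Hspa4, an HSP110 relative of Hsph1, fell by 0.81 ± 0.22 against APAP (edgeR adjusted p = 0.0432), and Dnaja1 did not pass there (-0.43 ± 0.24, edgeR adjusted p = 0.243). Hspa5, the HSP70 of the endoplasmic reticulum, had 1159 and 1023 CPM in APAP and 137 and 162 CPM in SLIT2+APAP and fell by 2.87 ± 0.27 (edgeR adjusted p = 0.00476).

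In SLIT2+APAP against control 8 of the 70 fell (Cdc37, Hspb7, Hspbp1, Hspa9, Cct3, Cct4, Cct5 and Cct6a) and 0 rose. In that comparison 1.45% of all genes were called lower and 2.16% in either direction. Without both SLIT2 libraries edgeR called 0 of the 70 and 0.0188% of all genes. Hspb7 belongs to the small heat shock proteins, some of which muscle also makes, and the control libraries held the muscle marker sums of 1011 and 112.7 CPM. The other genes of its class were not called and stood at -3.21 (Cryab), -2.61 (Hspb2), -0.55 (Hspb6) and -0.07 (Hspb8). The part of muscle RNA in the values of that class was not tested. In SLIT2 against control 2 rose and 48 fell, with 13 of 14 CCT and prefoldin genes and 10 of 11 mitochondrial genes among the latter, where 54.9% of all genes were called, 27.6% lower. In the interaction 33 were positive and 2 negative, where 28.8% of all genes were called, 15.5% positive.

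**Figure D5:**
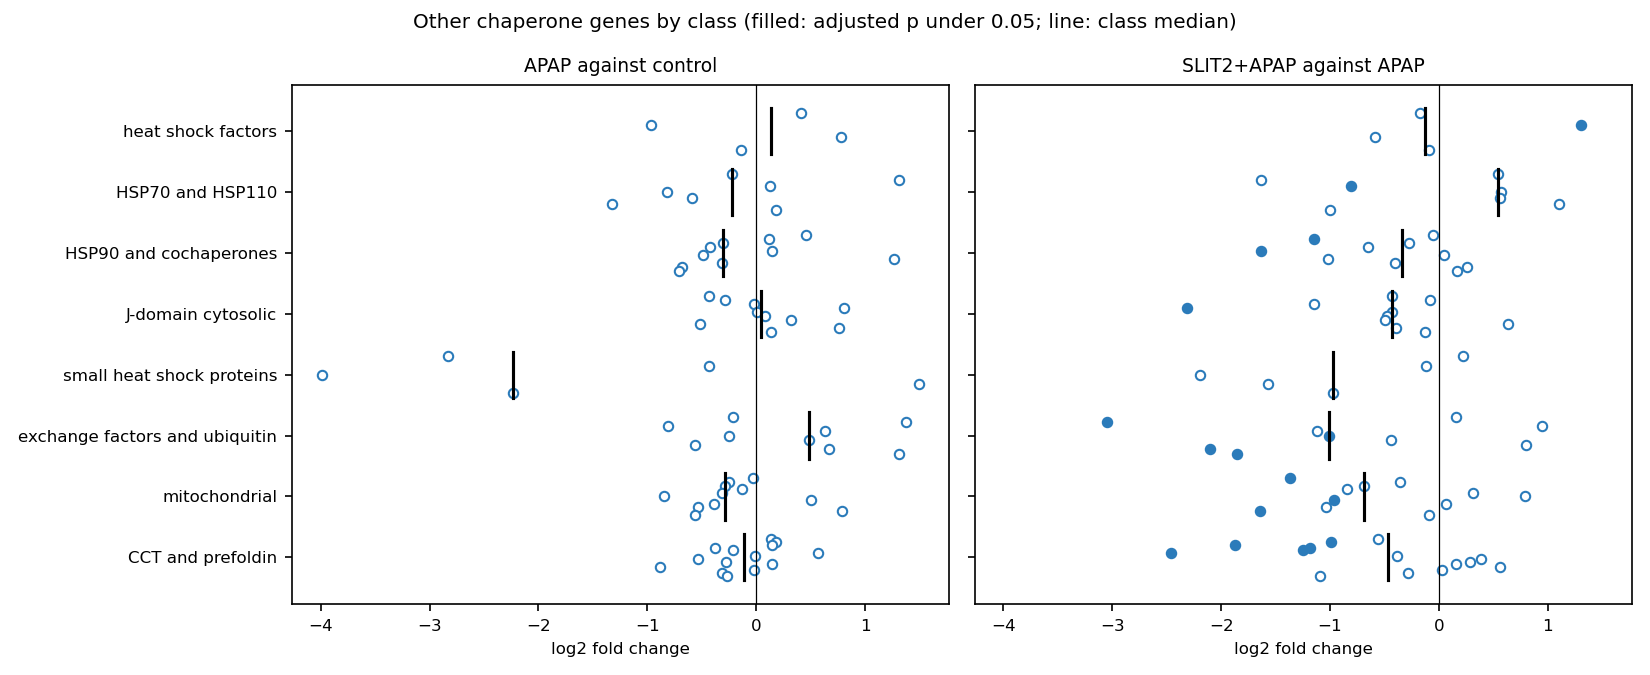
Log2 fold change (x axis) of the other chaperone genes by class (y axis), 1 point per gene, with a black line at each class median and filled points for an edgeR adjusted p under 0.05. The panel of APAP against control has 0 filled points, and that of SLIT2+APAP against APAP has 16 below 0 and 1, Hsf2, above.

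Over the 8 libraries, log2(CPM + 1) of Hspd1 and Hspe1 had a Pearson r of 1.00, and that of Bag3 and Dnajb1 0.94. Hspa8 had an r of 0.94 with both Hspa1b and Hspb1, and Hspa1a with Hsp90aa1 had the lowest value, 0.25. Among 6289 other genes with a mean of at least 10 CPM, the 4 most like the summed Hspa1a and Hspa1b were Hgs (r = 0.978), Sars (0.964), Srm (0.963) and Hdlbp (0.960). Hgs, the nearest, had 24.6 and 27.1 CPM in control, 22.4 and 19.9 in SLIT2, 41.3 and 36.6 in APAP, and 24.3 and 26.5 in SLIT2+APAP. The 5 most like the mean of Hspd1 and Hspe1 were Txnl1 (0.998), Emc7 (0.997), Bod1 (0.996), Creg1 (0.996) and Timm13 (0.995). These values describe 8 libraries in 4 groups that share treatment, depth and mitochondrial share within a group.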

How the data were processed

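Liver RNA of 8 libraries was measured by RNA-seq with a directional kit, per the labels' protocols. The authors deposited 1 table of counts, whole numbers per Ensembl gene and not scaled. STAR 2.5.4, Cufflinks, Cuffdiff 2.2.1 and the build mm10 are named in the submitters' processing notes, without roles. How reads were counted, with what strand setting and with what handling of shared reads, is not given in the sources used here. Symbols came from GENCODE M21 on GRCm38 (97.1% of identifiers matched) and start windows from RefSeq.

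Genes were kept by filterByExpr, scaled by TMM and fitted in edgeR 4.0.16 (R 4.3.3) by quasi-likelihood with 1 mean per group over all 8 libraries (robust, non-legacy fit, 4 residual degrees of freedom, common dispersion 0.112). Calls needed an adjusted p (Benjamini-Hochberg over all genes tested) under 0.05. DESeq2 1.42.0, other scalings, no filter, GC offsets, fewer libraries and a replicate block were alternatives. A lone library of a group was assumed to vary like the others. Calls and p-values of fits without 1 library therefore hold no spread of that group. The scripts were tested on simulated data. CPM use TMM-scaled library sizes, likeness used log2(CPM + 1), and figures were drawn with matplotlib 3.10.9.

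The members and lists were chosen with earlier results of these data known. All 10 members are named. Of the other chaperone genes, up to 12 called in SLIT2+APAP against APAP or APAP against control were named by smallest p, with 6 named whatever their values (Hsf1, Hsf2, Hsp90ab1, Hspa9, Hspa4 and Dnaja1). Hspa5 is given for comparison, and the small heat shock class was set out after its values were seen. Same-numbered libraries did not deviate together (correlations of 0.07, -0.07 and -0.01), so the numbers were not taken as pairs. Libraries of a group differed by more than sampling noise, and unequally between groups. Their median absolute log2 difference was 0.601 in APAP, 0.36 in SLIT2, 0.219 in SLIT2+APAP and 0.215 in control. The fit over all 8 libraries shares 1 spread estimate per gene, so the APAP spread also enters comparisons without APAP libraries. The genes nearest in pattern were to be the 5 with the highest r, and 1 of them is not reported here.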

Additional observations from a re-analysis of the deposited data

Results flagged for a closer look

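The effect of SLIT2 in mice given APAP differed from that in mice not given it, by the edgeR interaction term, for both mitochondrial members and 7 of the other chaperone genes named. The term, taken as the log2 effect of SLIT2 in APAP-treated mice less that in the others, was 1.98 for Hspd1 (adjusted p = 0.00757) and 2.13 for Hspe1 (adjusted p = 0.00948). It was 1.69 for Hspa9, 1.67 for Cct4, 1.33 for Cct5, 2.5 for Ubb, 1.85 for Ahsa1 and 1.74 for Dnaja1. For Afg3l2 it was -0.89. By its definition, a positive term means that the SLIT2 difference was lower without APAP than with it. The SLIT2 libraries without APAP were those where 60.2% and 69.0% of counts were mitochondrially encoded. Of the other chaperone genes named, 12 were picked by smallest p in comparisons that share libraries with this term. At 28.8% of all genes called in this term, such calls are common in these data.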

How the results depend on the processing

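With 2 libraries a group, few counts of calls were stable. The counts of all genes called were 133 in APAP against control, 2351 in SLIT2+APAP against APAP, 365 in SLIT2+APAP against control, 9266 in SLIT2 against control and 4867 in the interaction. DESeq2 gave 1836, 3532 and 1455 genes in the first 3 and called 4, 6 and 1 members. It gave 9246 genes and 7 members in SLIT2 against control and 5671 genes and 3 members in the interaction. In APAP against control library totals gave 236 genes and 1 member, no filter 205 genes, the legacy fit 54 and GC offsets 68, while a fit to only the libraries compared and one without the SLIT2 libraries gave 0. Only the libraries compared gave 1 gene and 0 members in SLIT2+APAP against APAP, and 4246 genes and 4 members in SLIT2+APAP against control, where a fit without the SLIT2 libraries gave 3 genes and 0 members and library totals 0 members.

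Leaving out 1 library at a time, members called ranged from 0 to 5, 0 to 6, 0 to 1, 3 to 8 and, in the interaction, 2 to 5, and genes from 0 to 5181, 21 to 6133, 2 to 2558, 6272 to 11672 and 1002 to 8303. The other chaperone genes called, an alternative chosen after seeing the data, ranged from 0 to 23, 0 to 30, 0 to 21, 43 to 56 and 11 to 46. Library totals moved the share of calls that were higher from 42.1% to 61.4%, 45.1% to 61% and 33.2% to 68.5% in the first 3 comparisons, and the median of all genes to 0.16, 0.12 and 0.34. With the replicate block SLIT2+APAP against control gave 2494 genes and 1 member and SLIT2 against control 11062 genes and 7 members. A block could not be fitted for APAP, whose libraries carry other numbers.

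Of the members' fold changes under these alternatives, 760 kept direction and side of the threshold, 31 passed it newly, 30 lost it and 24 reversed, all 24 in values that were not called. In APAP against control, GC offsets gave 0.02 for Hspe1, Hspd1 and Hsp90aa1 and library totals 0.04 for Hspd1. Hsp90aa1 stood at 0.18 (library totals) and 0.00 (without the SLIT2 libraries) against APAP and at 0.04 (library totals) against control in SLIT2+APAP. Hspa1a against control stood at -0.00 with the replicate block, and the interaction of Hspa1b at -0.42 with the copies summed. Leaving out 1 library, Hsp90aa1 ranged from -0.66 to 0.09 in APAP against control, -0.43 to 0.39 in SLIT2+APAP against APAP and -0.66 to 0.05 in SLIT2+APAP against control. Hspb1 in SLIT2+APAP against APAP ranged from -1.97 to 0.27, Hspa1a in SLIT2+APAP against control from -1.66 to 1.11 and Hspa1b there from -1.0 to 0.37. In the interaction Dnajb1 ranged from -1.77 to 0.60 and Hspa1b from -0.70 to 0.72. The cause was not tested.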
